A study of Mus musculus with 8 samples.

Results

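The 10 genes described here encode enzymes that write, maintain or remove DNA methylation and the catalytic subunits of Polycomb repressive complex 2 (PRC2). They were chosen by symbol, as Dnmt1, Uhrf1, Hells, Dnmt3a, Dnmt3b, Tet1, Tet2, Tet3, Ezh1 and Ezh2, and all 10 were found once each among the 22059 genes listed for every sample. The samples were livers of wild-type FVB/NJ mice, an inbred strain given as FVB in the labels, collected as biological duplicates at each of 4 stages, namely embryonic day 18 (E18), postnatal day (P)14, P28 and adult, with no treatment named at any stage. The methods of the study give adult livers as from males of 3 months, and name no sex for livers of E18, P14 or P28. Poly(A) RNA of the liver was sequenced in 100 bp reads, and each sample had 68154675 to 106055723 reads on the listed genes. The duplicates carry no litter, sex or batch label, so the p-values below measure only the spread between these samples. If only the adults were all male, sex and stage cannot be told apart in the comparisons with adult. Each gene is given on GRCm38 (GENCODE M21) where it is first described, whereas the reads were placed by the authors on the earlier build mm9.

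Methylation of cytosine in CpG dinucleotides is copied after DNA replication by DNMT1, which UHRF1 brings to hemimethylated DNA, while HELLS, also named LSH, is a chromatin remodeller that opens packed DNA to the methyltransferases. DNMT3A and DNMT3B place new methyl groups, and the TET enzymes oxidise them as the first step of their removal. EZH2 and EZH1 are alternative catalytic subunits of PRC2, which trimethylates histone H3 at lysine 27 and keeps developmental genes silent. EZH2 is known as the form of dividing cells and EZH1 as the form of resting cells. In the fetal liver, hepatocytes share the organ with blood-forming cells, and both compartments divide. The adult liver has largely lost the blood-forming cells and its hepatocytes rarely divide.

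Between E18 and adult, the maintenance genes, Tet1 and Ezh2 fell by the largest factors, and Ezh1 after TMM scaling stayed within the spread of its duplicates. Of the 10 genes, 8 fell (edgeR false discovery rate below 0.1), beside 43.8% of all 17081 genes tested, and 1 rose, beside 39.5% of all genes. A fall of over 3-fold was met by 5 of the 10 (Dnmt1, Uhrf1, Hells, Tet1 and Ezh2), beside 23.8% of all genes, and a rise of over 3-fold by 0 of the 10 (also 0 at an unadjusted p under 0.05 alone, and 0 with DESeq2), beside 16.8%. The median log2 fold change was -2.53 for the 10 genes and -0.11 for all genes tested. All 10 genes passed the filter on low counts, Uhrf1 and Tet1 with few reads in adult liver. Scaling by library size alone, without the TMM factors of edgeR, moved the median of all genes by -0.85 from E18 to adult, because the E18 samples carried factors of 1.598 and 1.539 and the later samples of 0.847 to 0.888. The levels below are CPM, the count of a gene relative to all counts of the sample after TMM scaling, with both samples of a stage given, and the plot of levels shows them together.

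**Figure D1:**
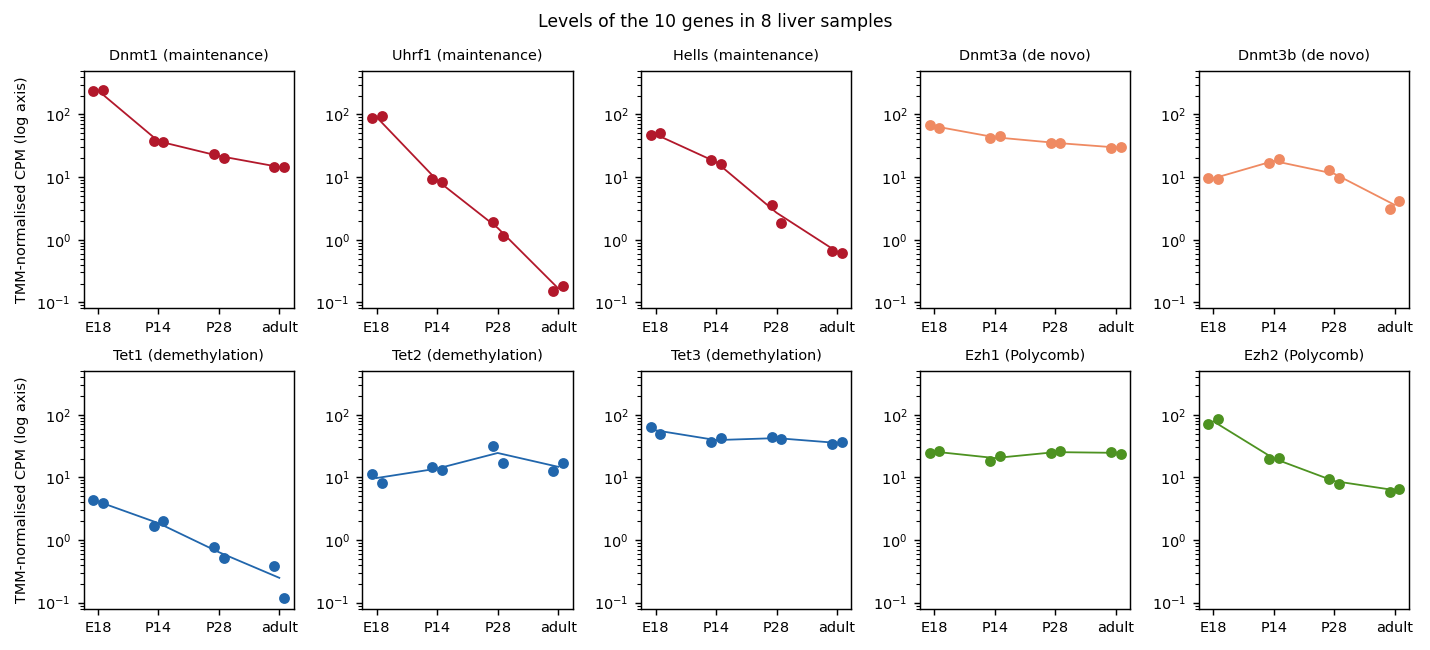
Levels of the 10 genes by stage, as TMM-normalised CPM (log axis), with 1 point per sample and a line through the stage means of the duplicates. Uhrf1 ran from 86.9 and 93 at E18 to 0.155 and 0.181 in adult, whereas Ezh1 lay between 18.4 and 26.6 in all 8 samples.

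Dnmt1 (chr9:20907209-20959888, minus strand), the methyltransferase that copies methylation patterns, was at 235.5 and 247.3 CPM at E18, 38.1 and 36.6 at P14, 23.2 and 20.3 by P28, and 14.7 and 14.3 in adult. No sample of one stage overlapped those of the next. From E18 to adult, Dnmt1 fell 16.7-fold, a log2 fold change of -4.06 (with a standard error, SE, of 0.10 and an edgeR adjusted p = 3.3e-09). Uhrf1 (chr17:56303321-56323486, plus strand), which recognises hemimethylated DNA, fell furthest of the 10. Its level was 86.9 and 93.0 CPM at E18, 9.45 and 8.23 at P14, 1.93 and 1.16 by P28, and 0.155 and 0.181 in adult. The adult values rested on 9 and 12 reads, against 12061 and 11378 reads at E18. The log2 fold change was -9.05 (SE 0.27, edgeR adjusted p = 7.2e-09), and 0.9% of all genes tested fell further. Hells (chr19:38930915-38971051, plus strand) went from 46.5 and 49.7 CPM at E18 through 18.5 and 16.3 at P14 and 3.54 and 1.86 at P28 to 0.670 and 0.618 in adult. Hells thus fell 74.7-fold (log2 fold change -6.22, SE 0.29, edgeR adjusted p = 7.7e-08). The P28 duplicates of Hells differed by 0.92 on the log2 scale, more than at any other stage, and both lay below the P14 and above the adult samples.

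The maintenance genes spread their falls over the intervals in different ways. Dnmt1 fell 6.47-fold from E18 to P14 (log2 fold change -2.69), and then by only 1.72-fold and 1.5-fold in the next intervals. Uhrf1 lost 10.2-fold, 5.69-fold and 9.15-fold in the same intervals. Hells fell less at first, by 2.77-fold, and more from P14 to P28, by 6.40-fold, before a last fall of 4.21-fold. All these falls passed the test, the weakest of them the last fall of Dnmt1 (edgeR adjusted p = 0.0044). Whether the intervals differed from each other was not tested with a contrast of its own.

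Polycomb subunit Ezh2 (chr6:47530139-47595341, minus strand) also fell in every interval. It was at 72.2 and 85.0 CPM at E18, 19.6 and 20.5 at P14, 9.57 and 7.89 by P28, and 5.95 and 6.57 in adult, with no overlap between successive stages. The fall from E18 to adult was 12.6-fold (log2 fold change -3.65, SE 0.14, edgeR adjusted p = 2.1e-08). Most of it lay before P28, since the last interval gave a log2 fold change of -0.48 (edgeR adjusted p = 0.041). That last fall did not pass without P28 replicate 1 (-0.33, edgeR adjusted p = 0.25) or without adult replicate 1 (-0.41, edgeR adjusted p = 0.19).

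Promoter sequences were searched because the 3 maintenance genes and Ezh2 fell together, and the words were chosen after their values had been seen. Tet1, which fell 16.9-fold from E18 to adult, was not part of that reason, and all 10 genes were searched. The words TTTCCCGC, TTTCGCGC, TTTGCCGC and TTTGGCGC, which make up the consensus that E2F factors of the cell cycle bind, were looked for on both strands of RefSeq windows (GRCm38.p6) reaching from 250 bases before to 50 bases after each annotated start. All 10 genes had a window, and Dnmt1 and Dnmt3a had 3 windows each and Uhrf1 had 2. A match was found in 1 window each of Dnmt1, Uhrf1, Hells and Ezh2, and in none of the windows of Dnmt3a, Dnmt3b, Tet1, Tet2, Tet3 and Ezh1. The only window of Tet1 lay 11794 bases from the nearest start of a principal transcript in GENCODE M21, and that of Tet3 14714 bases. The sequence around those principal starts was therefore not searched for Tet1 and Tet3. Of all 32851 windows, 2.26% held a match, and of the 27025 genes with a window, 2.60% did. The share was 4.10% among the 11758 genes tested here that had a window. A match was held by 8 of 16 DNA replication genes, 2 of 9 PRC2 subunits and 0 of 16 PRC1 subunits with a window. The matches are shown in capitals within 30 bases, read 5′ to 3′ on the strand of the gene. In the first of the Dnmt1 stretches the word stands on the other strand, so the capitals are its reverse complement.
Dnmt1, chr9:20952824-20952853: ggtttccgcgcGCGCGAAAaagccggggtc
Dnmt1, chr9:20952574-20952603: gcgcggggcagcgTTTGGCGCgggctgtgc
Uhrf1, chr17:56304117-56304146: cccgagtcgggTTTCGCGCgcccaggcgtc
Hells, chr19:38930917-38930946: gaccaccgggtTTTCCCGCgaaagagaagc
Ezh2, chr6:47595009-47595038: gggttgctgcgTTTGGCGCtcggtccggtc
Counted from the annotated start as base 1, the matches began at -219 and 34 in Dnmt1, at -185 in Uhrf1, at -62 in Hells and at 4 in Ezh2. A match to these letters is not a measured binding site. The remaining Dnmt1 windows and the other Uhrf1 window held none, and which start is used in liver was not measured.

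CCAAT and TTTGAA, further words found in cell cycle promoters, were counted in the same windows. CCAAT stood in windows of Dnmt1, Uhrf1, Tet3 and Ezh2 and in 37.41% of all windows, and TTTGAA stood in windows of Dnmt1 and Dnmt3b and in 17.89% of all windows. The windows of the 10 genes held 2 to 57 CpG dinucleotides, against a median of 7 over all windows. The lowest of these was the most distal Dnmt1 window, with 2, and the highest was that of Tet2, with 57. The windows with an E2F-type match held 31 to 34, and those of the genes without a match 17 to 57. Each E2F-type word itself holds a CG, and the shares of all windows and genes were not matched for CpG content.

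Unlike the maintenance genes, the de novo methyltransferases changed by less than 3-fold from E18 to adult after TMM scaling, and they did not follow the same course. With library size alone both fell by over 3-fold, with log2 fold changes of -1.98 for Dnmt3a and -2.25 for Dnmt3b. Upper-quartile scaling gave -1.38 for Dnmt3a and -1.66 for Dnmt3b, over 3-fold for Dnmt3b only. Dnmt3a (chr12:3806007-3914443, plus strand) was at 68.9 and 60.8 CPM at E18, 41.4 and 45.0 at P14, 35.2 and 35.2 by P28, and 29.6 and 29.9 in adult. It fell 2.18-fold (log2 fold change -1.13, SE 0.09, edgeR adjusted p = 3.6e-06). The step from P14 to P28 passed (log2 fold change -0.30, edgeR adjusted p = 0.029), but not without P14 replicate 2 (-0.23, edgeR adjusted p = 0.17), without P28 replicate 1 (-0.30, edgeR adjusted p = 0.11) or without P28 replicate 2 (-0.30, edgeR adjusted p = 0.11). From P28 to adult the log2 fold change of Dnmt3a was -0.24 (edgeR adjusted p = 0.12).

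Dnmt3b (chr2:153649450-153687730, plus strand) peaked at P14. Its values were 9.73 and 9.31 CPM at E18, 17.1 and 19.2 at P14, 13.1 and 9.50 by P28, and 3.11 and 4.08 in adult. The P14 samples were the highest of the 8 and the adult samples the lowest. From E18 to P14, Dnmt3b rose 1.90-fold (log2 fold change 0.93, SE 0.18, edgeR adjusted p = 0.0012), whereas scaling by library size alone gave a log2 fold change of 0.06 (edgeR adjusted p = 0.77). It then fell from P14 to P28 (log2 fold change -0.68, edgeR adjusted p = 0.013) and by 3.14-fold from P28 to adult (log2 fold change -1.65, edgeR adjusted p = 0.00088). In the last interval, 3.6% of all genes tested fell further than Dnmt3b. After TMM scaling, endothelial and B cell markers also rose from E18 to P14 and then fell. Of all genes tested, 38.2% rose from E18 to P14, 28.6% fell from P14 to P28 and 13.2% fell from P28 to adult. All 4 endothelial markers rose from E18 to P14 (median log2 fold change 1.07) and fell in both later intervals (medians -1.27 and -0.64), with sums of 44.2 to 52.4 RPKM at E18, 51.6 to 53.3 at P14 and 12.9 to 14.8 in adult. All 3 B cell markers rose from E18 to P14 (median 1.15) and fell from P14 to P28 (median -1.90), with sums of 3.86 to 6.58 RPKM at E18, 4.53 to 5.26 at P14 and 1.01 to 1.03 in adult, and no marker of either list was at 0 in both samples of a stage. With library size alone, 2 endothelial markers rose and 1 fell from E18 to P14 (median 0.20), and 1 B cell marker rose (median 0.29). The median of all genes in that interval was then -0.897. These were not the only lists to rise. After TMM scaling, all 6 hepatocyte markers rose from E18 to P14, and 3 fell and 1 rose from P14 to P28. Of 5 Kupffer cell markers, 2 rose and 1 fell from E18 to P14. The part of any of these cell types in the course of Dnmt3b was not tested.

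Each TET gene had its own course. Tet1 (chr10:62804570-62908996, minus strand), the form best known from embryonic stem cells, had the lowest RPKM of the 10 genes at every stage. It was at 4.33 and 3.91 CPM at E18, 1.70 and 2.02 at P14, 0.763 and 0.518 by P28, and 0.378 and 0.121 in adult, and the last pair rested on 22 and 8 reads. It fell 16.9-fold from E18 to adult (log2 fold change -4.08, SE 0.39, edgeR adjusted p = 9e-06). The log2 fold change was -5.08 without adult replicate 1 and -3.45 without adult replicate 2. The fall from P28 to adult (log2 fold change -1.40, edgeR adjusted p = 0.063) was -2.40 without adult replicate 1, and did not pass without P28 replicate 1 (-1.08, edgeR adjusted p = 0.28) or without adult replicate 2 (-0.77, edgeR adjusted p = 0.26).

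Tet3 (chr6:83362373-83459084, minus strand), the TET form with the highest RPKM in all 8 samples, moved early and little. Its level was 62.8 and 50.01 CPM at E18, 36.3 and 42.4 at P14, 43.4 and 41.3 by P28, and 33.8 and 37.2 in adult. From E18 to P14, Tet3 fell 1.43-fold (log2 fold change -0.52, SE 0.13, edgeR adjusted p = 0.005). Neither later interval passed, with log2 fold changes of 0.11 (edgeR adjusted p = 0.53) and -0.25 (edgeR adjusted p = 0.23).

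Tet2 (chr3:133463679-133545139, minus strand), a form with a large role in blood cells, was the only one of the 10 that rose from E18 to adult, and this call was weak. Tet2 stood at 11.5 and 8.07 CPM at E18, 14.6 and 13.1 at P14, 32.0 and 17.0 by P28, and 12.7 and 16.8 in adult. One P28 sample was the highest of all 8, and the duplicates of that stage lay 0.91 apart on the log2 scale. The log2 fold change from E18 to adult was 0.60 (SE 0.29, edgeR adjusted p = 0.081) and turned to -0.26 when samples were scaled by library size alone (edgeR adjusted p = 0.43). It did not pass without E18 replicate 2 (0.36, edgeR adjusted p = 0.37) or without adult replicate 2 (0.37, edgeR adjusted p = 0.35). From P14 to P28, Tet2 rose by 0.83 on the log2 scale (edgeR adjusted p = 0.04), a value that did not pass without P14 replicate 2 (0.75, edgeR adjusted p = 0.16) and dropped to 0.30 without P28 replicate 1 (edgeR adjusted p = 0.36).

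The study's splicing survey also lists a variable Tet2 exon of 24 bases. Its sequence is shown because the counts used here cannot separate transcripts with it from those without it.
Tet2 exon: gaagaaaaagcaatcaccacccag
By exact match it lay at chr3:133479342-133479365 on the minus strand of GRCm38, as exon 7 of a protein-coding transcript of 12 exons, and its letters stood in 2 of the 10 annotated Tet2 transcripts. Inclusion of the exon was not analysed here.

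Ezh1 (chr11:101191115-101226463, minus strand) took another course than its paralogue Ezh2. It was at 24.9 and 26.6 CPM at E18, 18.4 and 22.3 at P14, 24.6 and 26.0 by P28, and 25.8 and 23.5 in adult. The adult and E18 samples overlapped. The log2 fold change from E18 to adult was -0.06 (SE 0.11, edgeR adjusted p = 0.62), at the 51.1 percentile of all genes tested. With library size alone it was -0.91 (edgeR adjusted p = 4.1e-05), which lay at the same 51.1 percentile. Ezh1 fell from E18 to P14 (log2 fold change -0.34, edgeR adjusted p = 0.023), though not without P14 replicate 1 (-0.21, edgeR adjusted p = 0.19). It rose from P14 to P28 (log2 fold change 0.32, edgeR adjusted p = 0.051), though not without P14 replicate 1 (0.18, edgeR adjusted p = 0.31), without P28 replicate 1 (0.35, edgeR adjusted p = 0.10) or without P28 replicate 2 (0.28, edgeR adjusted p = 0.19).

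**Figure D2:**
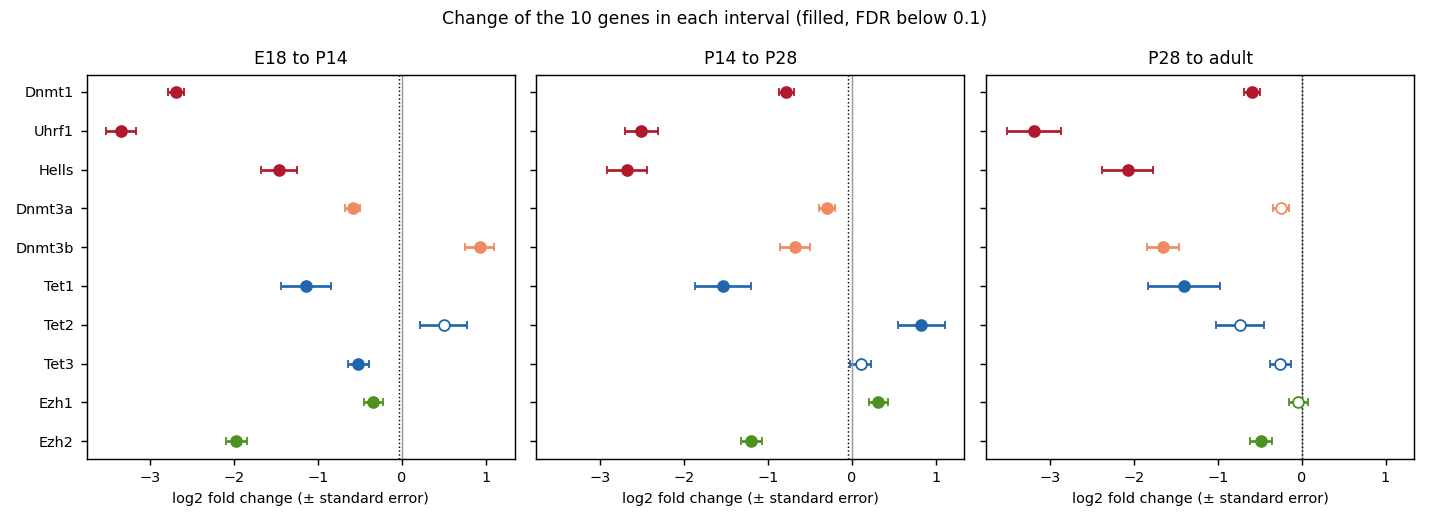
Log2 fold change of each gene in the 3 intervals between stages, with its standard error as bars. Filled points passed a false discovery rate below 0.1, open points did not, and the dotted line marks the median of all genes tested. Uhrf1, Hells, Dnmt1 and Ezh2 fell in all 3 intervals. The falls of Dnmt1 and Ezh2 were smaller in each later interval, and Dnmt3b turned from 0.93 in the first to -1.65 in the last.

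Counted by interval, 8 of the 10 genes fell from E18 to P14, beside 39.3% of all genes, and 1 rose (Dnmt3b), beside 38.2%. From P14 to P28, 7 of the 10 fell, beside 28.6% of all genes, and 2 rose (Tet2 and Ezh1), beside 25.2%. From P28 to adult, 6 of the 10 fell, beside 13.2% of all genes, and 0 of the 10 rose (0 at an unadjusted p under 0.05 in edgeR and 0 with DESeq2), beside 7.94%. The 6 genes of the last interval were Dnmt1, Uhrf1, Hells, Dnmt3b, Tet1 and Ezh2. Intervals that meet at a stage share its samples. The plot of intervals gives every value with its error.

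The order of the genes by RPKM, the count relative to transcript length and to all mapped reads, changed between the ends of the series. At E18 the stage means ran from Dnmt1 (56.1 RPKM) through Ezh2 (43.2), Uhrf1 (36.1), Hells (23.3), Dnmt3a (9.65), Ezh1 (9.0), Tet3 (7.59), Dnmt3b (3.23) and Tet2 (1.56) to Tet1 (0.429). The duplicates of neighbours in this order overlapped only for Dnmt3a and Ezh1. In adult the order was Ezh1 (4.70), Tet3 (2.61), Dnmt3a (2.41), Ezh2 (1.88), Dnmt1 (1.84), Tet2 (1.29), Dnmt3b (0.667), Hells (0.171), Uhrf1 (0.0368) and Tet1 (0.0141). Here the duplicates of Tet3 overlapped those of Dnmt3a, and those of Ezh2 overlapped those of Dnmt1. Uhrf1 thus went from rank 3 to rank 9, and Ezh1 from rank 6 to rank 1.

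Ratios of RPKM within a sample do not depend on the scaling between samples. They were compared across the 4 stages by an exact permutation test of the F statistic over all 2520 assignments of the samples, with p-values adjusted over the 6 ratios and a ratio counted as passing at an adjusted p below 0.05. At the 0.1 used for genes, all 6 ratios pass. The smallest p that this design allows is 0.00952. The ratio of Ezh2 to Ezh1 was 4.55 and 5.03 at E18, 1.68 and 1.44 at P14, 0.611 and 0.477 by P28, and 0.362 and 0.440 in adult (exact permutation p = 0.00952, adjusted p = 0.0143). Ezh1 therefore supplied 18.0 and 16.6% of the RPKM of the pair at E18 and 73.4 and 69.4% in adult, and the larger share passed from Ezh2 to Ezh1 between P14 and P28. The sum of the pair fell from 49.0 and 55.3 RPKM to 6.61 and 6.54.

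Among the DNA methyltransferases, Dnmt1 made up 80.2 and 82.5% of their summed RPKM at E18 and 38.5 and 36.3% in adult, when Dnmt3a held the largest share, 49.6 and 48.6%. The ratio of Dnmt1 to Dnmt3a was 5.34 and 6.36 at E18, 1.44 and 1.27 at P14, 1.03 and 0.903 by P28, and 0.777 and 0.746 in adult (exact permutation p = 0.00952, adjusted p = 0.0143). The ratio of Dnmt3b to Dnmt3a was 0.322 and 0.349 at E18, 0.940 and 0.970 at P14, 0.852 and 0.615 by P28, and 0.240 and 0.312 in adult (exact permutation p = 0.00952, adjusted p = 0.0143). Both P14 samples were the highest for this ratio. From E18 to P14 the RPKM of Dnmt3a went from 9.65 to 3.54 as stage means, while that of Dnmt3b went from 3.23 to 3.39 with overlapping duplicates. Uhrf1 fell relative to its partner Dnmt1, from ratios of 0.637 and 0.649 at E18 through 0.429 and 0.388 at P14 and 0.143 and 0.0986 at P28 to 0.0182 and 0.0219 in adult (exact permutation p = 0.00952, adjusted p = 0.0143).

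Tet1 relative to Tet2 went from 0.246 and 0.316 at E18 to 0.0194 and 0.00467 in adult (exact permutation p = 0.019, adjusted p = 0.0229). The ratio of Tet3 to Tet2 was 4.60 and 5.22 at E18, 2.10 and 2.73 at P14, 1.14 and 2.04 by P28, and 2.24 and 1.86 in adult. It missed 0.05 (exact permutation p = 0.0571, adjusted p = 0.0571) and met the 0.1 used for genes, and both E18 samples lay above all others. The plot of ratios gives all 6 in every sample.

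**Figure D3:**
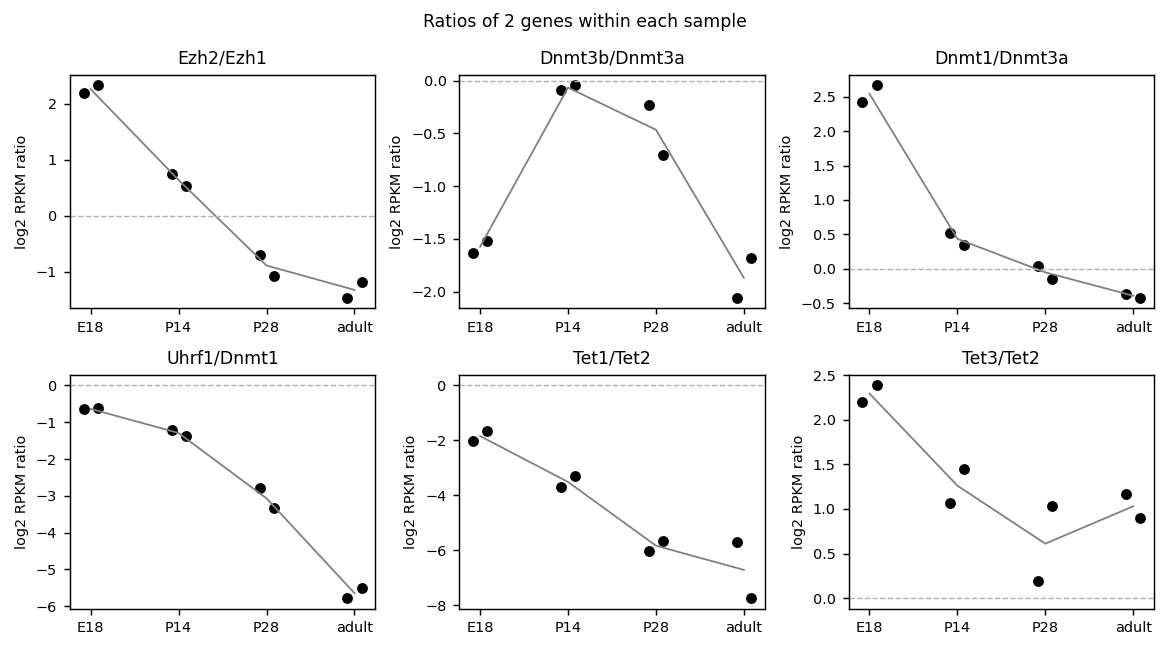
Log2 of the RPKM ratio of 2 genes within each sample, by stage, with 1 point per sample and a line through the stage means. The dashed line at 0 marks equal RPKM, which the ratio of Ezh2 to Ezh1 crossed between P14 and P28, and the ratio of Dnmt3b to Dnmt3a came nearest to at P14.

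Many of these changes went along with DNA replication genes and with markers of dividing and blood-forming cells. All 19 DNA replication genes (such as Mcm2, Pcna and Rrm2) fell from E18 to adult, with a median log2 fold change of -5.12, and all 6 proliferation markers (Mki67, Top2a, Ccnb1, Cdk1, Bub1 and Aurkb) fell as well. Of all 17081 genes tested, 43.8% fell and 39.5% rose from E18 to adult, which holds beside each count of this paragraph. The summed RPKM of the proliferation markers was 470.2 to 524.3 at E18, 34.6 to 37.2 at P14, 5.90 to 7.22 by P28, and 0.780 to 0.828 in adult. All 9 erythroid markers tested fell, with sums of 9489 to 12030 RPKM at E18, 50.1 to 59.1 at P14 and 40.3 to 45.1 in adult, and none was at 0 in both samples of a stage. All 9 blood progenitor and myeloid markers tested fell, with sums of 381.2 to 401.8 at E18 and 2.47 to 3.47 in adult, where 1 of them was at 0 in both samples. All 6 hepatocyte markers rose, although Alb turned to a log2 fold change of -0.26 with library size alone. Of 5 Kupffer cell markers, 3 fell, beside 43.8% of all genes, and 2 rose, beside 39.5%. Their sums were 101.9 to 156.1 RPKM at E18 and 81.7 to 88.6 in adult. In bulk RNA, fewer cells of a type and less RNA per cell cannot be told apart, and the part of these cell types in the falls of the 10 genes was not tested.

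Set against the summed RPKM of the 19 replication genes, the maintenance genes did not behave alike. Dnmt1 was 4.34 and 3.81% of that sum at E18, 3.25 and 3.28% at P14, 6.05 and 6.91% by P28, and 8.33 and 8.95% in adult. Ezh2 went from 3.15 and 3.10% at E18 to 7.96 and 9.75% in adult, so both genes fell by less than the replication genes as a sum. Uhrf1 went from 2.77 and 2.48% down to 0.151 and 0.196%. Hells was 1.79 and 1.60% at E18, 3.30 and 3.05% at P14, and 0.793 and 0.810% in adult. These shares are given as a description.

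The genes whose course over the 8 samples lay nearest to each of the 10 were found by the Euclidean distance of centred log2 CPM among the 17080 other genes tested. Nearest to Uhrf1 were Clspn (distance 0.63) and Depdc1b (0.77). Hells was nearest to A630055G03Rik (0.39) and Cdca7l (0.71), Dnmt1 to Sept1 (0.24) and Ppp1r9b (0.31), and Ezh2 to Coro1a (0.25), an actin-binding protein of white blood cells, and Tuba1b (0.32). Dnmt3a lay nearest to Pde7a (0.20) and Tia1 (0.21), and Dnmt3b to Gspt2 (0.52) and 4632428C04Rik (0.60). Tet1 was nearest to Fbp2 (0.83) and Gpr173 (0.87), the largest distances of the 10, Tet2 to Crtc3 (0.41) and Gm15880 (0.50), and Tet3 to Ttc26 (0.23) and Mbtd1 (0.24). Ezh1 had the smallest distance of all, to Cbfa2t2 (0.13), followed by Rps6ka4 (0.19). The log2 values were centred but not scaled, so a gene that changes little has small distances by construction. The distances therefore do not rank the 10 genes. The correlation (r) of Ezh1 with these neighbours was 0.959 and 0.923, against 0.999 for both neighbours of Dnmt1.

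The other subunits of PRC2 had smaller fold changes than Ezh2. Of 9 tested, 7 fell, beside 43.8% of all genes, and 1 rose, beside 39.5%, from E18 to adult, with a median log2 fold change of -0.85. With library size alone, 8 fell and 0 rose, and the median of all genes was then -0.955. The shares of all genes, here and for the lists below, are those after TMM scaling only. The core subunit Suz12 fell by 1.92 on the log2 scale (edgeR adjusted p = 4.4e-07), the histone-binding Rbbp7 by 1.92 (edgeR adjusted p = 1.1e-07), and Eed, which reads trimethylated lysine 27, by 0.74 (edgeR adjusted p = 0.00028). Rbbp4 was at 27.9 and 34.5 RPKM at E18 and 15.9 and 17.8 in adult, with a log2 fold change of -0.02 after TMM scaling (edgeR adjusted p = 0.91). Of the Polycomb-like accessory subunits, Phf19 fell by 2.39 (edgeR adjusted p = 6.2e-07), the most of the list, and Phf1 rose by 1.03 (edgeR adjusted p = 1.2e-05), or by 0.18 with library size alone.

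In PRC1, the Polycomb complex that ubiquitinates histone H2A, 12 of 21 subunits fell, beside 43.8% of all genes, and 7 rose, beside 39.5%, with a median log2 fold change of -0.41. With library size alone, where the median of all genes was -0.955, 14 fell and 3 rose. The CBX proteins, which bind trimethylated lysine 27, went both ways. Cbx6 fell from 16.2 and 16.1 RPKM at E18 to 1.24 and 1.22 in adult (log2 fold change -2.84, edgeR adjusted p = 3.6e-08). Cbx7 rose from 1.30 and 0.965 to 3.27 and 3.10 RPKM (log2 fold change 2.37, edgeR adjusted p = 1.3e-06), the largest rise of the list. Cbx8 and Ring1 rose by 1.47 and 0.95 on the log2 scale, or had values of 0.62 and 0.10 with library size alone. Bmi1, Yaf2 and Cbx2 rose by 0.82, 0.70 and 0.55 (edgeR adjusted p = 0.068 for Cbx2) but turned to -0.03, -0.15 and -0.31 with library size alone. Scml2 had the largest fall, from 348 and 237 reads at E18 to 4 and 2 reads in adult (edgeR adjusted p = 1.1e-06).

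Of the 5 genes that oppose Polycomb silencing, 4 fell, beside 43.8% of all genes, and 0 rose (edgeR, also 0 risen at an unadjusted p under 0.05), beside 39.5%. The lysine 27 demethylase Kdm6a fell by 1.46 on the log2 scale (edgeR adjusted p = 0.00053), with E18 duplicates of 20.6 and 12.5 RPKM that differed more than those of adult, 3.16 and 3.39. Kdm6b, the other such demethylase, had a log2 fold change of 0.01 (edgeR adjusted p = 0.96).

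Partners and readers of DNA methylation changed in both directions. Of 14 tested among 16 listed, 9 fell, beside 43.8% of all genes, and 4 rose, beside 39.5%, with a median log2 fold change of -0.64. With library size alone the counts were 11 fallen and 1 risen, at a median of -0.955 for all genes. Cdca7, the partner of HELLS in chromatin remodelling, fell from 15.7 and 16.02 RPKM at E18 through 1.63 and 1.62 at P14 to 0.488 and 0.435 in adult (log2 fold change -4.23, edgeR adjusted p = 3.2e-08). Its relative Cdca7l fell most of the list (log2 fold change -6.46, edgeR adjusted p = 1.1e-08). Uhrf2, the paralogue of Uhrf1, was at 31.2 and 31.4 RPKM at E18 and 11.4 and 12.1 in adult, and fell by 0.54 on the log2 scale (edgeR adjusted p = 0.0002) (Uhrf1 fell by 9.05). Zbtb4, Zbtb38 and Zbtb33, zinc finger proteins that bind methylated DNA, rose by 1.16, 1.14 and 1.10, or had values of 0.31, 0.29 and 0.25 with library size alone. Mbd1 rose by 0.54 but turned to -0.31 with library size alone. Dnmt3l, a cofactor of the de novo enzymes in germ cells, was not tested, with 0 to 7 reads per sample.

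Of 11 genes tested that act with or after the TET enzymes, 5 fell and 4 rose, shares near the 43.8 and 39.5% of all genes, with a median log2 fold change of 0.10. With library size alone, 7 fell and 3 rose and the median was -0.75, against -0.955 for all genes. Tdg, the glycosylase that removes oxidised cytosine, had only 86 and 55 reads at E18 and 20 and 17 in adult and fell by 0.84 on the log2 scale (edgeR adjusted p = 0.044). The glycosylase Neil3 fell furthest, from 4769 and 5085 reads at E18 to 2 and 3 reads in adult (edgeR adjusted p = 7.2e-09), and Neil1 rose (log2 fold change 1.97, edgeR adjusted p = 7.5e-07). Gadd45g rose most (log2 fold change 3.43, edgeR adjusted p = 2.8e-05). Its relatives went the other way, Gadd45a by -2.18 (edgeR adjusted p = 0.00012) and Gadd45b by -2.51 (edgeR adjusted p = 4.5e-05). Idh1, a source of the 2-oxoglutarate that TET enzymes consume, rose from 59.8 and 79.0 RPKM to 219.1 and 210.9 (log2 fold change 2.50, edgeR adjusted p = 4.1e-07). Idh2, the other IDH gene of the list, fell from 137 and 151 RPKM to 51.3 and 41.4 (log2 fold change -0.76, edgeR adjusted p = 0.00052). Smug1 rose by 0.54 but turned to -0.31 with library size alone.

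**Figure D4:**
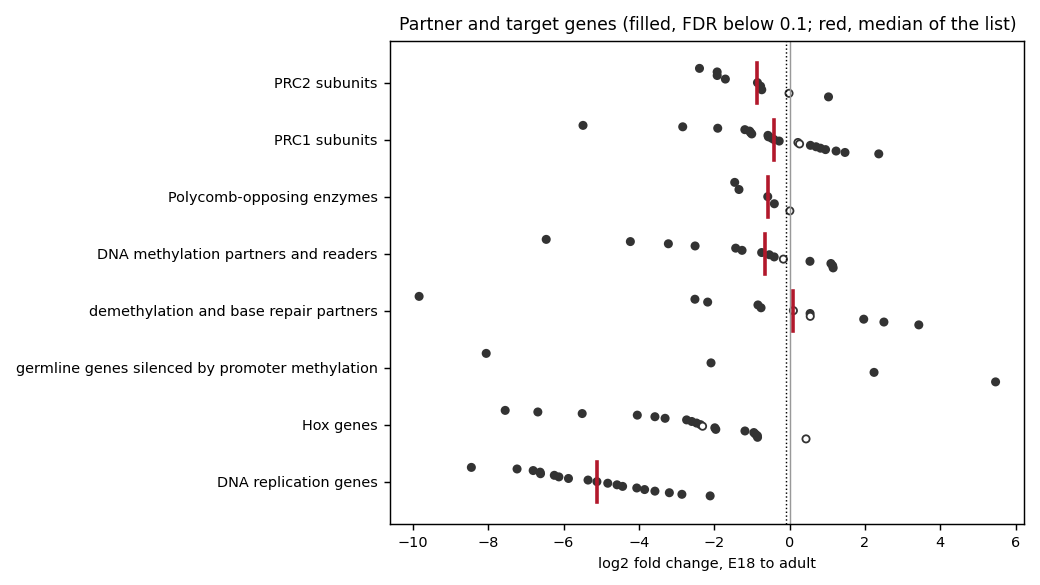
Log2 fold change from E18 to adult (TMM scaling) of the genes tested in 8 lists, with 1 point per gene, filled where the false discovery rate was below 0.1, and a red mark at the median of the list. The dotted line is the median of all genes tested, -0.11. PRC1 subunits and methylation partners lay on both sides of it, whereas all 19 replication genes lay below -2. The position of genes with 0 to 3 reads at a stage, among them Neil3, Ddx4 and Hoxa9, depends on the small count added by edgeR, and no median is marked for the germline and Hox lists, which hold genes with 0 reads in adult.

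The members whose call from E18 to adult turned on the scaling are set out in the plot of scalings, which holds no other interval. Calls in other intervals turned on it too, such as the rise of Dnmt3b from E18 to P14 given above. The values that follow are from E18 to adult. Relative to the median of all genes, Tet2 lay 0.70 above it both with TMM and with library size alone, and Ezh1 lay 0.04 above it in both. The falls of Dnmt1, Uhrf1, Hells, Tet1 and Ezh2 passed and exceeded 3-fold under each of the 4 scalings.

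**Figure D5:**
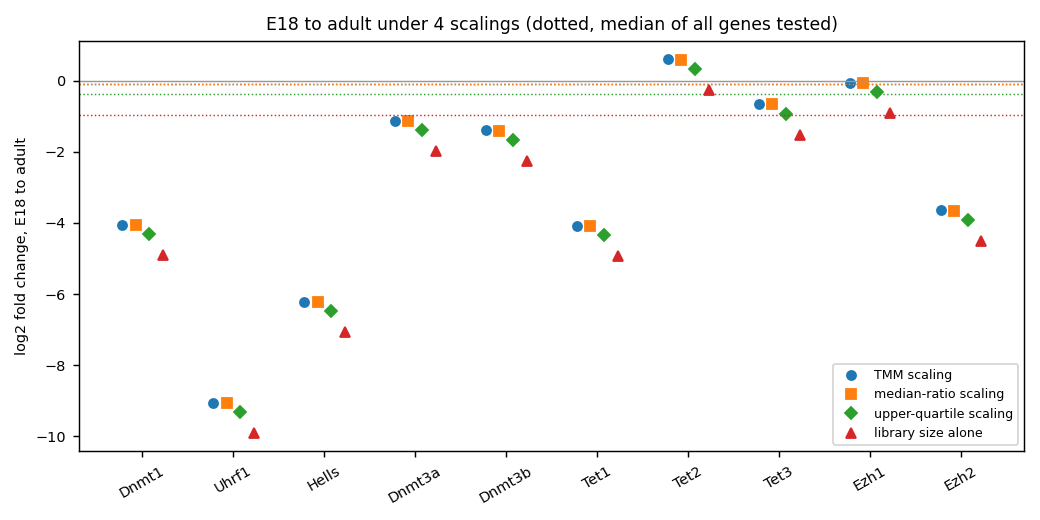
Log2 fold change of the 10 genes from E18 to adult under 4 scalings of the counts, with a dotted line in the colour of each scaling at the median of all genes tested. Library size alone moved every gene down by about the same amount as that median, which took Tet2 from 0.60 to -0.26 and Ezh1 from -0.06 to -0.91.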

How the data were processed

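Stage and replicate number of the 8 samples came from the sample labels. The authors deposited, for each sample and 22059 gene symbols, raw read counts without normalisation and RPKM (the count relative to transcript length and to all mapped reads). The submitters' processing notes name the build mm9, and the aligner is not given in the sources used here. RNA was isolated with Trizol per the labels, or with the RNeasy kit per the methods of the study.

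Counts were filtered by filterByExpr (17081 genes kept), scaled by TMM and fitted with 1 coefficient per stage over all 8 samples by the quasi-likelihood test of edgeR (version 4.0.16, R 4.3.3). A call needed a false discovery rate (Benjamini-Hochberg) below 0.1, and adjusted p-values are over all genes tested. The study used DESeq and counted changes of over 3-fold. The standard error (SE) is the log2 fold change divided by the square root of F. DESeq2 (version 1.42.0), limma (version 3.58.1) on log2(RPKM + 0.1) and other scalings, filters and thresholds were alternatives. Python (version 3.11.15) with pandas (version 2.3.3) and matplotlib (version 3.10.9) was used for sequences and figures.

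The 10 genes and the lists were chosen with earlier results of these data known. Named are the 10 genes, the 2 nearest genes of each, PRC2 core subunits, Cdca7, Uhrf2, Tdg, Kdm6a, Kdm6b, Cbx7, Cbx2, and the largest rise and fall in each list. Other list genes were named after their values were seen. Spi1 could not be matched by symbol. At this depth 3 reads were taken as the smallest measurable value, and counting error limits only Uhrf1, Tet1 and list genes with few reads. Protein sequences, isoforms and the study's other experiments were not analysed here.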

Additional observations from a re-analysis of the deposited data

How the results depend on the processing

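The samples that share a replicate number do not deviate together (mean r of deviations -0.080 over 6 pairs of stages, from -0.439 to 0.191, across 6756 genes), so the numbers were not taken as pairs. With the replicate block the counts were the same, such as 8 members fallen and 1 risen from E18 to adult. The over 3-fold threshold lowered the members fallen from 8 to 5 (E18 to adult), from 8 to 3 (E18 to P14), from 7 to 2 (P14 to P28) and from 6 to 3 (P28 to adult), and left 0 risen in each. From E18 to adult, 0 members rose with at least 10 counts in every sample (a filter that leaves 8 of the 10 tested, without Uhrf1 and Tet1), library size alone, upper-quartile scaling, limma on log2(RPKM + 0.1) or a false discovery rate below 0.05. From E18 to P14, 0 rose with library size alone or limma and 2 with only the 2 stages compared, and from P14 to P28, 1 rose with upper-quartile scaling or a false discovery rate below 0.05. Leaving out each sample gave 0 to 1 risen from E18 to adult, 1 to 2 from E18 to P14 and 0 to 2 from P14 to P28, and 8 fallen from E18 to adult each time. Tet2 turned negative with library size alone (-0.26 from E18 to adult, -0.37 from E18 to P14) and limma (-0.25 and -0.32), which takes RPKM without TMM factors. Without single samples, Tet3 from P14 to P28 ranged from -0.003 to 0.223 and Ezh1 from P28 to adult from -0.110 to 0.025, neither called. Of the 352 values of single members under the other settings, 332 kept direction and side of the threshold, 9 came to pass, 7 no longer passed and 4 reversed. The count of 5 ratios with an adjusted p below 0.05 was 5 to 6 under the alternatives, and 6 at a threshold of 0.1. Few reads in adult liver limit Uhrf1 (9 and 12 reads) and Tet1 (22 and 8 reads), and the cause of the other differences was not tested.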

Other observations

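Genes that are known targets of these enzymes moved in both directions. Of 10 germline genes that promoter methylation is known to silence in somatic tissue, 4 passed the filter on low counts. Sycp3, a protein of the meiotic chromosome axis, rose at each stage, from 98 and 79 reads at E18 to 461 and 479 at P14, 1207 and 1194 by P28, and 1819 and 1907 in adult (0.934 and 0.833 RPKM against 22.0 and 20.8). Its log2 fold change from E18 to adult was 5.47 (SE 0.14, edgeR adjusted p = 3.3e-09). Brdt, a bromodomain protein of the testis, rose as well (log2 fold change 2.24, edgeR adjusted p = 2.7e-05), from 91 and 71 reads to 135 and 234. Ddx4, the germ cell helicase, went the other way, with 47 and 49 reads at E18 and 0 and 0 in adult (edgeR adjusted p = 0.00014), and Sycp1 fell from 181 and 74 reads to 12 and 16 (edgeR adjusted p = 0.0039). Ddx4 had enough reads for the filter only at E18, so that it could only fall. The other 6 genes of the list had at most 14 reads in any sample.

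Of 39 Hox genes, the best known Polycomb targets, 19 passed the filter, and 17 of these fell and 0 rose from E18 to adult (edgeR, 0 risen also at an unadjusted p under 0.05). Hoxa5 went from 2.61 and 1.66 RPKM at E18 to 0.224 and 0.195 in adult, and Hoxa9, with the largest fall, from 38 and 30 reads to 0 and 0 (edgeR adjusted p = 0.0018). Among the fallen, Hoxa7, Hoxa9, Hoxc4, Hoxc5, Hoxd3 and Hoxd4 had 15 to 88 reads at E18 and at most 6 in any later sample. These genes had enough reads for the filter only at E18, so that the filter fixed their direction. The 0 risen therefore holds as a result only for the other Hox genes tested. Hox genes lie side by side in clusters and their counts are not independent of each other. These lists are given as values, and DNA methylation and lysine 27 methylation were not measured in these files.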
